A study of Mus musculus with 6 samples.

Results

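Resident perivascular macrophages carry a recognisable set of transcripts, and 10 of these genes were followed here in LYVE-1+ TAMs sorted from tumors: Lyve1, Mrc1, Cd163, Folr2, F13a1, Cbr2, Gas6, Stab1, Maf and Timd4. They were chosen by name as identity genes of this macrophage type and make up 10 of the 21841 genes in the deposited table. The RNAseq compared MMTV-PyMT mice (FVB/N-Tg(MMTV-PyVT)634Mul/J) given vehicle with MMTV-PyMT mice given KCL-HO-1i, 3 mice in each group, and 1 library was made from each mouse. In this strain the MMTV promoter drives the polyoma middle T antigen in mammary epithelium, so all 6 mice, whose genotype is otherwise labelled WT, carried the transgene and developed mammary tumors spontaneously. KCL-HO-1i is a tin mesoporphyrin inhibitor of HO-1, the enzyme that breaks down heme, and was injected intraperitoneally at 25 µmol/kg/day over the 36 h before the tumors were taken. The design gives 5000 cells as the size of the sort, gated as live CD45+F4/80+CD206+LYVE-1+ cells. The age of the mice is not given in the sources used here. Whether the phenotype of the sorted PvTAMs differs after HO-1 inhibition is the question that the comparison addresses.

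Tissue-resident macrophages that line blood vessels take up debris, glycoproteins and dying cells, and their identity genes largely encode the machinery for this work. LYVE-1 binds hyaluronan, CD206 (from Mrc1) is the mannose receptor, and CD163 and Stabilin-1 are scavenger receptors, for hemoglobin complexed with haptoglobin and for modified proteins respectively. TIM-4 recognises phosphatidylserine on dying cells, and GAS6 bridges the same lipid to receptor tyrosine kinases of the TAM receptor family, whose abbreviation is unrelated to tumor-associated macrophages. Factor XIII A subunit, carbonyl reductase 2, folate receptor beta and the transcription factor c-MAF complete the set.

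The estimated counts of a library summed to 206728 to 338255 with vehicle and 207812 to 535224 after KCL-HO-1i. Levels are given as rounded counts or as CPM, which are counts scaled to a common library size over the tested genes with TMM normalization. Mitochondrial genes made up 1.17% to 3.77% of the vehicle libraries but 9.68%, 2.45% and 41.8% in KCL-HO-1i replicates 1, 2 and 3. Genes of general macrophage identity (12 genes, among them Lyz2, Ctss and Csf1r) took 0.0204% to 0.126% of the counts with vehicle and 0.315% to 0.537% after KCL-HO-1i, with no overlap between the groups. The share of macrophage transcripts therefore moved with the treatment label in these libraries. The number of sorted macrophages, the RNA per macrophage and the other counts of a library cannot be told apart in bulk samples. Each animal code of the vehicle mice begins with a prefix that no KCL-HO-1i mouse has, so treatment and any batch along these codes cannot be told apart.

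The promoters of 8 of the 10 genes were found in RefSeq (GRCm38.p6, the 250 bases before each listed start, 10 windows in all), and those of 3 genes are shown because they hold letters of motifs bound by the factors best known for macrophage identity, PU.1 and the MAF family. A PU box was searched as GAGGAAG or its reverse complement CTTCCTC, and a MAF motif as TGCTGAC or GTCAGCA. The motif letters are in capitals, the sequences read 5′ to 3′ on the strand of the gene, and no motif overlaps another in them. They cover chr2:14229164-14229391 on the plus strand for Mrc1, chr13:37050245-37050494 on the minus strand for F13a1 and chr11:46810549-46810798 on the plus strand for Timd4, all upstream of the annotated transcript start.
Mrc1: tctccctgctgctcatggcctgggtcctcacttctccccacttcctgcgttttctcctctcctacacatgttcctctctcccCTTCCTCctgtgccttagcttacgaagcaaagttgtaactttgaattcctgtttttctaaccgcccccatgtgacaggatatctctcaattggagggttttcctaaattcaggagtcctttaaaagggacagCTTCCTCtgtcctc
F13a1: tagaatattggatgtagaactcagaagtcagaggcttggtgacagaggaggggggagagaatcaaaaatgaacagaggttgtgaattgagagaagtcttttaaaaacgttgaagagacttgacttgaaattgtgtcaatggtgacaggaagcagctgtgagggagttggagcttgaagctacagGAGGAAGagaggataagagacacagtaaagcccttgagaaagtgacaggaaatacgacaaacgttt
Timd4: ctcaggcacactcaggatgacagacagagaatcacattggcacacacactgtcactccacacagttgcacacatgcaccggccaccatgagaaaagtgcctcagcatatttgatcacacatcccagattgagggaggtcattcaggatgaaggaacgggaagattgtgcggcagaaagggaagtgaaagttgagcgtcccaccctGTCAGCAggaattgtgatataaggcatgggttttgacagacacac
A PU box occurred in 3 of the 10 windows (Mrc1, F13a1 and Cbr2), against 10.6% of all 32851 promoter windows of the same length. The PU box of Cbr2 lies inside the gene as GENCODE annotates it, so its window is not shown. The MAF motif occurred in 1 of the 10 (Timd4), against 3.81% of all windows. These matches describe the letters only, and F13a1 has a second listed start whose window holds neither motif.

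Every KCL-HO-1i library lay above every vehicle library in CPM for 6 of the 10 identity genes, Mrc1, Folr2, F13a1, Cbr2, Gas6 and Timd4, and the remaining genes, Lyve1, Cd163, Stab1 and Maf, overlapped between the groups. Among the 7263 genes tested, 7.88% lay above in every KCL-HO-1i library and 16.1% lay below, while 0 of the 10 identity genes lay below. A low-count filter passed 9 of the 10 identity genes (not Cd163), and the log2 fold change was positive for 9 of these 9 and for 2367 of the 7263 genes. Their median log2 fold change was 2.40, beside -0.52 for all genes tested. Since the filter can pass a gene through its treated libraries alone, the count and the median are a description. With edgeR's quasi-likelihood test and Benjamini-Hochberg adjustment, 0 of the 9 passed an adjusted p-value of 0.05 with an absolute log2 fold change above 0.6, as did 0 of all genes tested (0%). The unadjusted p-value was under 0.05 for 4 identity genes (F13a1, Cbr2, Gas6 and Mrc1), all higher after KCL-HO-1i, where the background was 5.01% of genes higher and 3.06% lower. DESeq2 without a filter called 1 identity gene, F13a1, with a background of 0.87% of genes called higher.

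Those directions depend on what the libraries are scaled to. When each library was scaled to its general macrophage counts, 0 of the 10 identity genes lay above in every KCL-HO-1i library (background 0.592%), and Lyve1 and Maf lay below in all of them, as did 73.5% of the genes tested. The median log2 fold change of all tested genes moved from -0.52 to -4.38 under that scaling, which turned the fold changes of Lyve1 (-2.85), Maf (-2.73), Timd4 (-2.23), Stab1 (-1.05) and Folr2 (-0.61) negative and left those of Cbr2 (1.09), Gas6 (0.76), Mrc1 (0.42) and F13a1 (0.11) positive. Relative to the median of all genes, the 9 tested genes stood 1.16 (Lyve1) to 4.35 (F13a1) higher on the log2 scale with TMM, and 1.53 (Lyve1) to 5.47 (Cbr2) higher with the macrophage scaling.

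**Figure D1:**
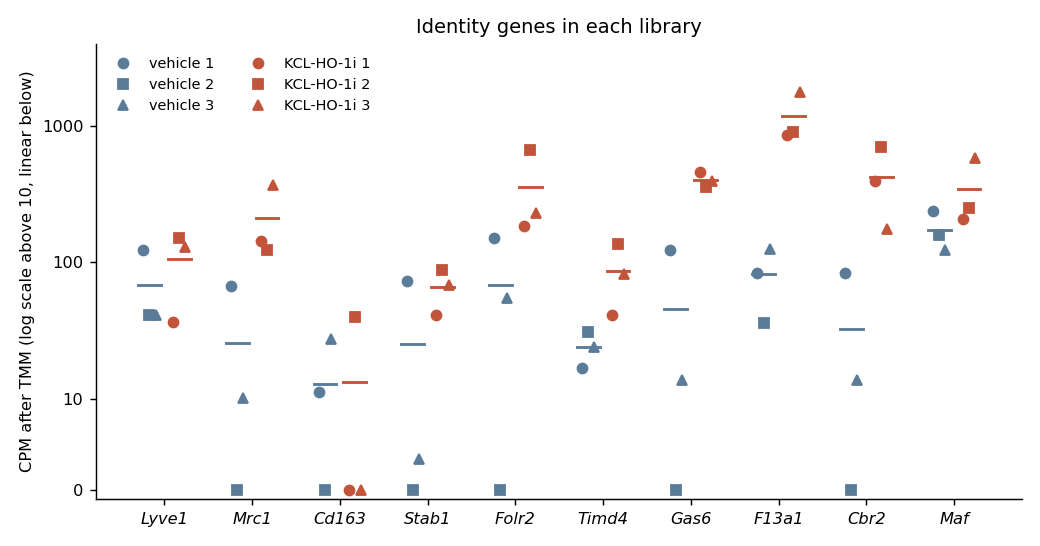
CPM after TMM normalization of the 10 identity genes in each library, on an axis that is logarithmic above 10 and linear below, with blue points for vehicle, red points for KCL-HO-1i and horizontal bars at the group means (n = 3 mice each). The red points of Mrc1, Folr2, Timd4, Gas6, F13a1 and Cbr2 all sit above the blue ones, and vehicle replicate 2 is at 0 for Mrc1, Cd163, Stab1, Folr2, Gas6 and Cbr2.

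Among the transcripts of the sorting markers, those of Mrc1 and Adgre1 were higher in each KCL-HO-1i library, while those of Lyve1 and Ptprc overlapped between the groups. Lyve1 (ENSMUSG00000030787.4, chr7:110850607-110863239, minus strand, 6 exons) had 22, 8 and 12 counts in vehicle replicates 1, 2 and 3 against 8, 38 and 36 counts in the KCL-HO-1i replicates, equal to 123, 41.4 and 41 CPM against 36.9, 152 and 129 CPM. KCL-HO-1i replicate 1 was the lowest of all 6 libraries, and the groups overlapped. The means were 68.4 ± 47.2 and 106 ± 60.9 CPM (SD, n = 3), with a two-sided exact permutation p = 0.4. The log2 fold change was 0.64 (SE 1.02, adjusted p = 0.936 from edgeR).

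Mrc1 (ENSMUSG00000026712.3, chr2:14229392-14332057, plus strand, 30 exons), whose promoter holds the pair of PU boxes shown above, had 12, 0 and 3 counts with vehicle and 31, 31 and 104 counts after KCL-HO-1i. This was 67.1, 0 and 10.2 CPM against 143, 124 and 373 CPM. The groups did not overlap, although vehicle replicates 2 and 3 were at or under the detection floor of 3 counts. The mean was 25.8 ± 36.1 CPM with vehicle and 213 ± 139 CPM after KCL-HO-1i (SD, n = 3), a ratio of 8.28, and the exact permutation p = 0.1 is the smallest that 3 libraries against 3 allow. Its log2 fold change of 3.06 (SE 1.28) had an unadjusted p = 0.036 and an adjusted p = 0.555 in edgeR, and became 5.41 without vehicle replicate 1. The microRNA gene Mir511 overlaps the span of Mrc1 on the same strand, and whether its reads entered the Mrc1 count was not tested.

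The other proteins of the gate gave a similar contrast for F4/80 and an uneven one for CD45. Adgre1, which encodes F4/80, had 3, 3 and 1 counts with vehicle, at or under the floor in 3 of 3 libraries, and 26, 44 and 72 counts after KCL-HO-1i. That is 11.9 ± 7.37 against 185 ± 69.7 CPM (SD, n = 3), with a log2 fold change of 3.95 (SE 1.09, adjusted p = 0.298 in edgeR and 0.046 in DESeq2 without a filter). Ptprc, which encodes the pan-leukocyte protein CD45, was listed at 4, 6 and 0 counts with vehicle and 0, 18 and 94 counts after KCL-HO-1i, so that its groups overlapped and it did not pass the filter. Only Lyve1 among the 4 sorting markers was above the floor in all 6 libraries. Sorting read protein on the cell surface, and these values are transcripts, so a low count does not show that the protein was absent.

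The genes whose levels ran most like these markers over the 6 libraries differed between them. By the mean absolute difference of centred log2 CPM, Lyve1 was closest to Cep170 (0.20), P4ha1 (0.23) and Spcs2 (0.23) among 7262 genes. The closest to Mrc1 were Mgst1 (0.22), encoding a microsomal glutathione transferase, Ctsz (0.24), encoding the lysosomal protease cathepsin Z, and Rnase4 (0.25), encoding a secreted ribonuclease. Ctsz had 15, 0 and 2 counts with vehicle and 30, 47 and 94 after KCL-HO-1i, whereas Cep170 had 16, 7 and 10 against 10, 32 and 39. Neighbours with low counts share depth and library effects, and the likeness is a description over 6 libraries.

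Among the scavenger and nutrient receptors, Folr2 was the most abundant, Stab1 was sparse and Cd163 was near the detection floor. Cd163 (ENSMUSG00000008845.9, chr6:124304656-124330527, plus strand, 17 exons) had 2, 0 and 8 counts with vehicle and 0, 10 and 0 counts after KCL-HO-1i. The gene was therefore at or under 3 counts in 2 of 3 libraries of each group. Its means were 12.8 ± 13.7 and 13.3 ± 23.1 CPM (SD, n = 3; exact permutation p = 1), and no difference was detectable at this depth. Stab1 (ENSMUSG00000042286.13, chr14:31139013-31168641, minus strand, 69 exons) had 13, 0 and 1 counts against 9, 22 and 19 counts, or 72.7, 0 and 3.41 CPM against 41.5, 87.9 and 68.2 CPM. Vehicle replicate 1 lay within the KCL-HO-1i range and the remaining vehicle libraries below it. The log2 fold change of 1.39 (SE 1.55, adjusted p = 0.931 in edgeR) became 5.03 without vehicle replicate 1.

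Folr2 (ENSMUSG00000032725.10, chr7:101839988-101857194, minus strand, 6 exons), encoding folate receptor beta, had 27, 0 and 16 counts with vehicle and 40, 167 and 64 counts after KCL-HO-1i. The CPM were 151, 0 and 54.6 against 184, 667 and 230. The groups did not overlap, but the gap between vehicle replicate 1 and KCL-HO-1i replicate 1 was small beside the spread within either group, and it closed when library totals replaced TMM. The means were 68.5 ± 76.4 and 360 ± 267 CPM (SD, n = 3; exact permutation p = 0.1), and the log2 fold change was 2.40 (SE 1.21, adjusted p = 0.675 in edgeR).

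Across a wider list of 14 scavenger and lectin receptors, 7 were tested, 5 had a positive log2 fold change and the median was 1.09, beside -0.52 for all genes. In this list 2 genes had an unadjusted p-value under 0.05 in the higher direction (Cd36 and Mrc1) and 1 in the lower direction (Colec12), and 0 passed the adjusted threshold. Cd36, a receptor for oxidised lipids and long-chain fatty acids, had 0, 0 and 12 counts against 31, 53 and 46 counts, with a log2 fold change of 3.51 (SE 1.40, adjusted p = 0.515 in edgeR). Colec12, a scavenger receptor with a collagen-like stalk picked out with its values in view, went the other way with 45, 45 and 39 counts against 10, 17 and 12 counts. Its log2 fold change was -1.96 (SE 0.84, adjusted p = 0.588 in edgeR). Marco and Clec7a, receptors for bacterial and fungal surfaces, were listed at 0 in all 6 libraries.

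Gas6 and Timd4, which encode a ligand and a receptor for dying cells, were higher in each KCL-HO-1i library. The kinases that read the ligand were sparse. Gas6 (ENSMUSG00000031451.6, chr8:13465374-13494490, minus strand, 15 exons) had 22, 0 and 4 counts with vehicle and 100, 90 and 110 counts after KCL-HO-1i, or 123, 0 and 13.7 CPM against 461, 360 and 395 CPM. Relative to their mean, the treated libraries were the most alike for this gene among the identity genes, with a mean of 405 ± 51.4 CPM, while vehicle gave 45.5 ± 67.4 CPM (SD, n = 3; exact permutation p = 0.1). The log2 fold change was 3.17 (SE 1.23, unadjusted p = 0.0253, adjusted p = 0.5 in edgeR) and 5.91 without vehicle replicate 1. Timd4 (ENSMUSG00000055546.6, chr11:46810800-46844332, plus strand, 9 exons), whose promoter carries the MAF motif shown above, had 3, 6 and 7 counts against 9, 34 and 23 counts. This was 16.8, 31 and 23.9 CPM against 41.5, 136 and 82.5 CPM, without overlap. The gap was small beside the spread of the treated libraries. It rests on 9 counts in KCL-HO-1i replicate 1 against 6 and 7 in vehicle replicates 2 and 3. The means of 23.9 ± 7.12 and 86.6 ± 47.3 CPM (SD, n = 3; exact permutation p = 0.1) gave a log2 fold change of 1.83 (SE 1.16, adjusted p = 0.809 in edgeR), which turned to -2.23 with the macrophage scaling.

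Axl, the first of the 3 receptors of GAS6, had 12, 19 and 5 counts with vehicle against 9, 9 and 0 after KCL-HO-1i, and a log2 fold change of -1.22 (SE 1.50, adjusted p = 0.931 in edgeR). Mertk, the receptor usually found on resident macrophages, was listed at 0 in all vehicle libraries and had 0, 11 and 11 counts after KCL-HO-1i. Tyro3 had 1, 13 and 11 counts against 0, 18 and 7 counts. These receptor counts were too low for the filter in Mertk and Tyro3, and each overlapped between the groups. The receptors were looked up because their ligand is an identity gene, outside the rule for named genes and with their values known. Of 16 efferocytosis genes, 7 were tested, 5 had a positive log2 fold change, 1 (Gas6) had an unadjusted p-value under 0.05 and the median was 1.66. In CPM, 2 of the 16 (Gas6 and Timd4) lay above in every KCL-HO-1i library and 2 (Scarf1 and Itgb5) lay below. Among all genes tested these shares were 7.88% and 16.1%. Pros1, which encodes protein S and is the closest relative of Gas6, had 11, 7 and 1 counts against 5, 64 and 57 counts and overlapped between the groups (log2 fold change 2.27, SE 1.24, adjusted p = 0.744 in edgeR).

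The enzymes F13a1 and Cbr2 had the highest ratios of mean CPM in the set, an order that other fits and scalings did not keep. F13a1 (ENSMUSG00000039109.16, chr13:36867178-37050244, minus strand, 15 exons) encodes the transglutaminase subunit that cross-links fibrin, and it had 15, 7 and 37 counts with vehicle against 188, 227 and 493 counts after KCL-HO-1i. In CPM these were 83.8, 36.2 and 126 against 866, 907 and 1769, so the lowest treated library stood well above the highest vehicle library. The means of 82.1 ± 45.1 and 1181 ± 510 CPM (SD, n = 3) differed by a ratio of 14.4, with an exact permutation p = 0.1. The log2 fold change of 3.83 (SE 0.87) had an unadjusted p = 0.00103 and an adjusted p = 0.249 in edgeR, against an adjusted p = 0.00467 in DESeq2 without a filter. With the macrophage scaling it was 0.11. A single PU box lies upstream of the start shown above.

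Cbr2 (ENSMUSG00000025150.10, chr11:120729489-120732114, minus strand, 8 exons), encoding a mitochondrial carbonyl reductase, had 15, 0 and 4 counts with vehicle and 86, 177 and 49 counts after KCL-HO-1i. The CPM of 83.8, 0 and 13.7 were all below the 396, 707 and 176 of the treated libraries. The means were 32.5 ± 45 and 426 ± 267 CPM (SD, n = 3; ratio 13.1; exact permutation p = 0.1). Its log2 fold change of 3.72 (SE 1.24) had an unadjusted p = 0.0121 and an adjusted p = 0.365 in edgeR. In DESeq2 without a filter the adjusted p was 0.0781.

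Maf, the transcription factor of the set, had the most summed counts of the identity genes with vehicle (110, on a transcript of 6.36 kb). It overlapped between the groups. Maf (ENSMUSG00000055435.6, chr8:115682942-115707794, minus strand, 1 exon in its longest coding transcript) had 43, 31 and 36 counts with vehicle and 45, 63 and 162 counts after KCL-HO-1i. The CPM of 240, 160 and 123 against 207, 252 and 581 placed KCL-HO-1i replicate 1 within the vehicle range. The means were 174 ± 60 and 347 ± 204 CPM (SD, n = 3; exact permutation p = 0.2), and the log2 fold change was 0.99 (SE 0.77, adjusted p = 0.87 in edgeR). Among 22 relatives of the identity genes by family, 6 were tested, 3 had a positive log2 fold change, 0 had an unadjusted p-value under 0.05 and the median was 0.37. None of the 22 lay above in every KCL-HO-1i library and 4 lay below in every one, all 4 too low for the filter, beside 16.1% of the genes tested.

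**Figure D2:**
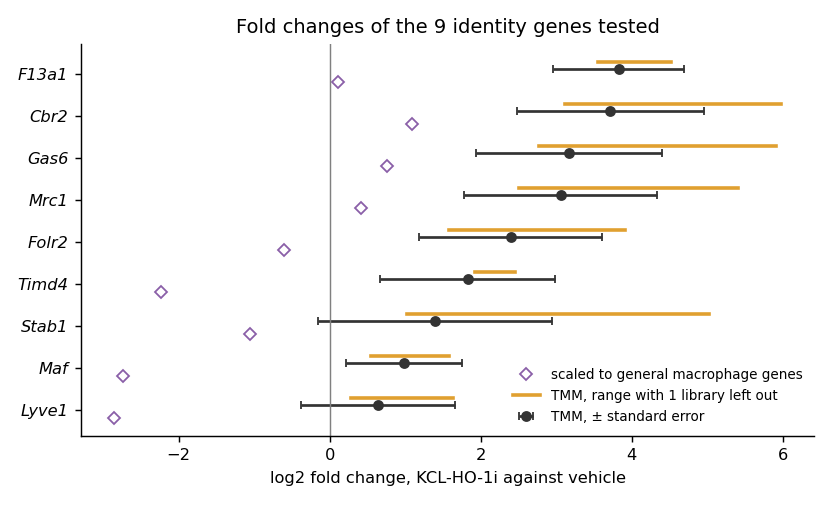
The log2 fold changes (KCL-HO-1i against vehicle) of the 9 identity genes tested, with points and black bars for the TMM value ± its standard error, yellow bars for the range with 1 library left out and open diamonds for libraries scaled to the general macrophage genes. All points lie right of 0, and the diamonds of Folr2, Timd4, Stab1, Maf and Lyve1 lie left of it.

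Resident macrophage companions are further genes known from the same kind of cell. Of 22 companions, 15 were tested and 7 did not pass the filter, which can pass a gene through its treated libraries alone. As a description of those tested, 14 had a positive log2 fold change and the median was 2.91, beside -0.52 for all genes. Unadjusted p-values under 0.05 in edgeR were found for 12 in the higher direction and for 1, Colec12, in the lower direction. The background was 5.01% of genes higher and 3.06% lower, and 0 companions were called by edgeR. Fcna, encoding the lectin ficolin A, had 11, 5 and 4 counts against 75, 91 and 83 counts (log2 fold change 3.32, SE 0.88, adjusted p = 0.296 in edgeR). Cd209g, a C-type lectin gene, had 0, 5 and 5 counts against 45, 133 and 37 counts (log2 fold change 4.27, SE 1.16, adjusted p = 0.298 in edgeR), a value that is uncertain because reads can be split among the similar Cd209 copies. Cd209b, Cd209f and Ninj1 were listed at 0 in every library. The other companions that did not pass the filter overlapped between the groups. These were Vsig4 (17, 0 and 3 counts against 0, 6 and 4), Mgl2 (0, 1 and 6 against 1, 0 and 0), Pla2g2d (8, 6 and 12 against 5, 22 and 0) and Ltc4s (0, 0 and 0 against 0, 7 and 51). The summed companions took 0.0698% to 0.445% of the counts with vehicle and 0.929% to 2.72% after KCL-HO-1i. Ccl8 and Selenop, picked out with their values in view, held most of each treated sum, so the sums do not describe the list as a whole. Ccl8 had 554, 6 and 37 counts with vehicle against 1286, 5874 and 2960 after KCL-HO-1i. Selenop had 99, 14 and 12 counts against 1266, 1439 and 804.

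Compared per length of the longest coding transcript, the order of the identity genes was uneven. With KCL-HO-1i, Cbr2 had the highest level at 384 ± 240 CPM per kb, followed by Folr2 (299 ± 221), F13a1 (299 ± 129), Gas6 (159 ± 20.2), Maf (54.5 ± 32.1), Timd4 (39.9 ± 21.8), Mrc1 (39.7 ± 25.8), Lyve1 (36.6 ± 21), Stab1 (8.23 ± 2.91) and Cd163 (3 ± 5.19), each as mean CPM per kb ± SD over 3 libraries. The ranges of neighbours in this order overlapped except between F13a1 and Gas6, between Gas6 and Maf and between Lyve1 and Stab1. Vehicle libraries put Folr2 first (56.9 ± 63.5 CPM per kb), then Cbr2 (29.3 ± 40.5), Maf (27.4 ± 9.43) and Lyve1 (23.7 ± 16.3), and again Stab1 and Cd163 last. The proteins that define the gate, CD206 and LYVE-1, thus corresponded to transcripts in ranks 7 and 8 of 10 after KCL-HO-1i and in ranks 8 and 4 with vehicle.

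Olfactory and vomeronasal receptor genes were taken as a scale for these levels, and whether macrophages use any of them was not tested. They took 5.97% to 6.38% of the counts with vehicle and 2.19% to 4.13% after KCL-HO-1i. The 97.5th percentile of 1471 such genes was 50.2, 52.2 and 40.6 CPM per kb in the vehicle libraries and 52.8, 31.3 and 43.2 CPM per kb in the KCL-HO-1i libraries. Above that level stood 2 of the 10 identity genes in vehicle replicate 1 (Folr2 and Cbr2), 0 in replicate 2 and 1 in replicate 3 (Folr2). In KCL-HO-1i replicates 1, 2 and 3 the number was 4, 7 and 7, with Folr2, F13a1, Cbr2 and Gas6 in each. Lyve1 and Maf exceeded it in KCL-HO-1i replicates 2 and 3 and in no vehicle library. Timd4 exceeded it in KCL-HO-1i replicate 2 alone, Mrc1 in KCL-HO-1i replicate 3 alone, and Stab1 and Cd163 in no library.

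**Figure D3:**
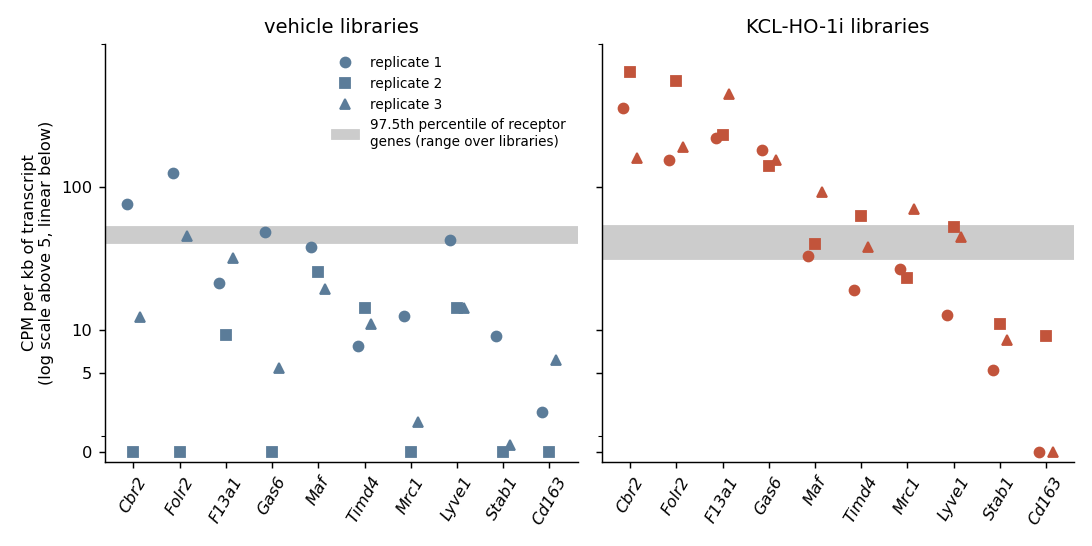
CPM per kb of transcript of the identity genes in the vehicle libraries (left) and the KCL-HO-1i libraries (right), on an axis that is logarithmic above 5 and linear below, with 1 point per library and a grey band for the range over the libraries of the 97.5th percentile of olfactory and vomeronasal receptor genes. Cbr2, Folr2, F13a1 and Gas6 stand above the band in all treated libraries, and most vehicle points lie within or under it.

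The make-up of the identity transcripts is described by the share of each gene in their sum. The 10 genes together had 174, 52 and 128 counts with vehicle and 516, 859 and 1060 counts after KCL-HO-1i. These are 0.0842%, 0.0241% and 0.0378% of all counts (Wilson 95% confidence intervals 0.0726% to 0.0977%, 0.0184% to 0.0316% and 0.0318% to 0.045%) against 0.248%, 0.269% and 0.198% (0.228% to 0.271%, 0.251% to 0.287% and 0.186% to 0.21%). The intervals of the groups did not overlap, and they cover counting error only. Lyve1 made up 12.6%, 15.4% and 9.38% of the identity counts with vehicle and 1.55%, 4.42% and 3.4% after KCL-HO-1i. Maf made up 24.7%, 59.6% and 28.1% against 8.72%, 7.33% and 15.3%, so both genes held a smaller part in every treated library. F13a1 went from 8.62%, 13.5% and 28.9% to 36.4%, 26.4% and 46.5%, where KCL-HO-1i replicate 2 fell within the vehicle range.

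Set against general macrophage counts, the sum of the identity genes was no higher after KCL-HO-1i. Per 1000 general macrophage counts there were 669, 1182 and 1320 identity counts with vehicle and 596, 500 and 628 after KCL-HO-1i, each treated library below each vehicle library. The vehicle denominators were 260, 44 and 97 counts, so these ratios are imprecise. Lyve1 had 84.6, 182 and 124 counts per 1000 macrophage counts with vehicle and 9.24, 22.1 and 21.3 after KCL-HO-1i. With this scaling 73.5% of the genes tested lay below in every KCL-HO-1i library, so a lower ratio is not particular to these genes. In CPM per kb, Lyve1 was also under the 97.5th percentile of the receptor genes in each vehicle library. Of the 12 general macrophage genes, 8 were tested, 7 had a positive log2 fold change and the median was 3.14, as a description. In CPM, 6 of the 12 lay above in every KCL-HO-1i library and 0 below, beside 7.88% and 16.1% of the genes tested. They were not all alike. Tyrobp had 22, 0 and 0 counts against 198, 204 and 124 counts. Cd68, with a negative log2 fold change, had 8, 9 and 8 counts against 0, 14 and 4 counts. Both genes were picked out with their values in view.

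**Figure D4:**
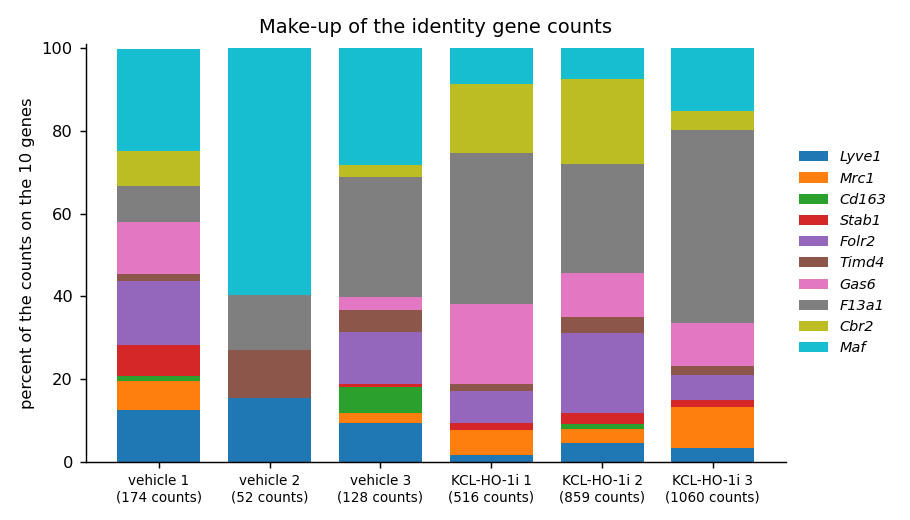
Percent of the summed identity gene counts held by each of the 10 genes, stacked to 100 for each library, with the number of counts under the bar. Maf holds 59.6% in vehicle replicate 2, which has 52 counts, and F13a1 holds 26.4% to 46.5% in the KCL-HO-1i libraries.

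Summed markers of some other cell types also differed between the groups as shares of all counts. Lyve1 and Stab1 are also used by lymphatic endothelium, whose 6 markers (Prox1, Pdpn, Flt4, Ccl21a, Mmrn1 and Reln) took 0.0218% to 0.031% of the counts with vehicle and 0.00577% to 0.0134% after KCL-HO-1i. Prox1, the factor that defines these vessels, had 15, 10 and 64 counts against 3, 40 and 21 counts, and Ccl21a was at 0 in 5 of 6 libraries. Of these 6 markers, 2 were tested, both with a negative log2 fold change (median -1.32), and 0 had an unadjusted p-value under 0.05. The summed markers were lower in every KCL-HO-1i library also for blood endothelium (0.0223% to 0.0225% against 0.00411% to 0.0125%), for monocytes and neutrophils (0.0136% to 0.0237% against 0.0116% to 0.0129%) and for fibroblasts and mural cells (0.0257% to 0.0266% against 0.00594% to 0.00953%). The sums overlapped between the groups for epithelial tumor cells (0.00835% to 0.0126% against 0.00168% to 0.0197%), lymphocytes (0.00726% to 0.0116% against 0.0028% to 0.0164%), dendritic cells (0.0241% to 0.039% against 0.00859% to 0.0245%) and platelets and mast cells (0.0029% to 0.00788% against 0% to 0.00336%). Mitochondrial genes took 41.8% of KCL-HO-1i replicate 3, which lowers the share of every other gene there. For monocytes and neutrophils the highest treated share, 0.0129%, belonged to this library and lay just under the lowest vehicle share of 0.0136%. That separation depends on keeping mitochondrial genes in the total. Shares outside mitochondrial genes are not given for any of these markers. Among monocyte and neutrophil markers, Ccr2 had 38, 29 and 32 counts against 23, 28 and 23 and overlapped in CPM. S100a8 had 0, 0 and 0 counts against 0, 2 and 27, both picked out with their values in view. The part of these other cell types and of the receptor gene background in the contrasts of the identity genes was not tested. With mitochondrial counts left out of the library size, the number of identity genes above in every KCL-HO-1i library was again 6, against 8.15% of the genes tested.

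Overlapping annotation may limit some of the values. On the strand opposite to the gene lie Gm10602 and Gm45319 for Folr2, Gm30489 and Gm49144 for F13a1, Tmem255b for Gas6, Nt5dc2 for Stab1 and Gm15655 for Maf. These are overlaps of whole gene spans, introns included, and overlap of exons was not examined. Whether the counting used the strand of the library kit is not given in the sources used here. Whether reads of these partners entered the counts of the identity genes was therefore not tested.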

How the data were processed

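Bulk RNAseq of sorted LYVE-1+ TAMs from 6 MMTV-PyMT mice was examined, 3 per group, with groups and replicate numbers taken from the sample titles. Per the labels and the study's methods, reads were checked by the authors using FastQC 0.11.9, aligned with STAR 2.7.9a to mm10 and quantified with Salmon 1.9.0 and tximport, and genes were compared with DESeq2. The table deposited by the authors holds estimated counts of each gene, not scaled to library size: the methods speak of TPM, but the library totals differ, so they were treated as estimated counts. The column names were matched to samples by animal code, and 0 columns were left without a sample.

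Here the estimated counts were rounded, filtered with filterByExpr (minimum count 10, minimum total 15), normalized with TMM and tested across all genes by edgeR 4.0.16 in R 4.3.3 (quasi-likelihood test) with Benjamini-Hochberg adjustment, calling genes at an adjusted p under 0.05 with a log2 fold change over 0.6 in size. The SE is the size of the log2 fold change divided by the square root of F. DESeq2 1.42.0 and limma 3.58.1 served as alternatives. Single values were compared by two-sided exact permutation tests (scipy 1.17.1), whose smallest p is 0.1. The floor was 3 counts. Without molecular identifiers, floors and intervals cover counting error only. Positions, exons and transcript lengths are those of GENCODE M21 on GRCm38, the build of the labels, and promoters those of RefSeq. The fit was tested on simulated data.

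The identity genes and all gene lists were chosen with earlier results of these data known. Named genes are the identity genes, Ptprc and Adgre1, the 2 genes with the smallest p of each companion list where none was called, and the 3 genes most like Lyve1 and Mrc1. A gene that this rule names is not reported here. Alternatives changed the tool, the scaling, the filter, the depth, the block, the fold threshold and the libraries.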

Additional observations from a re-analysis of the deposited data

How the results depend on the processing

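The number of genes called, 0 with edgeR and TMM, reached 164 of 11612 with DESeq2 on all genes (0.87% higher, 0.543% lower), 236 of 7260 with DESeq2 restricted to filtered genes (2.26% and 0.992%), 299 of 7263 in limma voom with quality weights (4.03% and 0.0826%), 82 of 19518 in edgeR with no filter on low counts (0.359% and 0.0615%) and 67 of 948 with at least 10 counts in every library (6.43% and 0.633%). The scaling to general macrophage genes gave 5275, of which 9 were higher and 5266 lower. With each replicate left out in turn it was 0 to 74, and the highest value came without vehicle replicate 1. Identity genes called, all higher, numbered 1 with DESeq2 on all genes (F13a1), 2 with DESeq2 restricted to filtered genes (F13a1 and Cbr2), 3 in limma voom (F13a1, Cbr2 and Gas6) and 1 in edgeR with no filter (F13a1), and 0 with each replicate left out. The cause of these differences was not tested. Counts of at least 10 in every library left Maf alone among the identity genes, which alters what could be called. RLE normalization, library totals, leaving out mitochondrial genes, thinning to the smallest library and the other fold thresholds called 0 genes. Only the macrophage scaling turned signs among the alternatives run: Lyve1 -2.85, Folr2 -0.61, Stab1 -1.05, Maf -2.73 and Timd4 -2.23. It moved the median of all genes by -3.86 and library totals by -0.35 on the log2 scale.

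The count of identity genes above in every KCL-HO-1i library, 6 with TMM, was tried under other scalings and with replicates left out after seeing the data. It was 5 with library totals (without Folr2), where 6.71% of all tested genes lay above, 6 without mitochondrial counts (8.15%) and 0 with the macrophage scaling (0.592%). With replicates left out it was 6 to 8, where 8.89% to 12.7% of all genes lay above, and it was 8 without vehicle replicate 1 (10.6%) and 8 without KCL-HO-1i replicate 1 (12.7%). With replicates left out the log2 fold change ranged from 0.28 to 1.64 for Lyve1, 2.51 to 5.41 for Mrc1, 3.56 to 4.52 for F13a1, 3.12 to 5.98 for Cbr2 and 2.78 to 5.91 for Gas6. It ranged from 1.58 to 3.91 for Folr2, 0.55 to 1.58 for Maf, 1.02 to 5.03 for Stab1 (5 of the fits) and 1.92 to 2.46 for Timd4 (3 of the fits). The replicate numbers of the groups belong to different mice, and libraries of the same number did not deviate together (correlations -0.0026, 0.055 and -0.033). With the replicate block, 0 genes and 0 identity genes were called. Low counts limit most values, as 6 identity genes were at 0 in vehicle replicate 2.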
